A study of Mus musculus with 2 samples.

Results

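The EGR and NR4A early response genes are a set of 10 gene models out of the 34745 in the deposited tables, taken by symbol: Egr1, Egr2, Egr3, Egr4, Nab1, Nab2, Nr4a1, Nr4a2, Nr4a3 and Srf. Their RNA was read in haematopoietic stem and progenitor cells isolated with a progenitor kit from the femoral marrow of C57BL/6 mice that had been given 5-fluorouracil, an agent that kills cycling cells. One culture carried the PML/RARa form labelled 2KR and the other carried wild-type PML/RARa (WT), the fusion of a nuclear body protein with a retinoic acid receptor that drives acute promyelocytic leukaemia. Both cultures received the fusion by lentivirus, were kept for 24 h before the medium was changed, and were sorted for transduced cells, so neither is free of the fusion. The myeloid medium of both held SCF at 50 ng/ml, IL-3 and IL-6 at 10 ng/ml each, hydrocortisone and 20% fetal bovine serum. The series title speaks of lysines in PML/RARa, and the labels do not spell out what 2KR stands for. The empty-vector arm named in the protocol was not analysed here, and the sources used here do not say how many mice were pooled.

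Early response genes are transcribed within minutes of a growth factor, cytokine or serum signal, without new protein synthesis, and their short-lived mRNAs decay soon afterwards. SRF binds the CArG box and, with ETS-family partners phosphorylated by ERK, switches on the EGR genes, while CREB at the cyclic AMP response element (CRE) is a main input to the NR4A genes. EGR proteins are zinc finger factors of a GC-rich site, and NAB1 and NAB2 are the corepressors that bind them and limit their activity. NR4A proteins are orphan nuclear receptors, and in mice EGR1, NR4A1 and NR4A3 restrain the proliferation of blood stem cells or the growth of myeloid leukaemia.

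In cells with the 2KR form, 3 of the 10 genes were at least 2-fold lower than in WT cells: Egr3 by 13.5-fold, Nr4a1 by 7.13-fold and Egr1 by 3.03-fold. Of all models above the expression filter, 4.56% were at least 2-fold lower. Egr1 and Nr4a1 were the leading genes of their families by count in both libraries, and Egr3 was next to Egr1 in its family in WT cells. The other 5 genes above the expression filter differed less than 2-fold, with Nab1 and Srf closest to a ratio of 1. The remaining 2, Egr4 and Nr4a3, were near the limit of detection in both libraries. The CPM ratio of 2KR over WT was below 1 for all 10. Of the 8 above the filter that is 8, against 47.7% of all models above it.

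The promoter sequences below are shown because they hold the letters through which SRF, CREB and EGR proteins bind. RefSeq windows of 300 bases, from 250 before to 50 after an annotated start on GRCm38.p6, were matched for 8 of the 10 genes; Egr1 and Egr3 were not matched. Each sequence runs 5′ to 3′ on the strand of the gene. Capitals mark the CArG box, the CRE core TGACG, the EGR site GCGNGGGCG and the ETS site CCGGAA, on either strand. The first 4 stretches end 1 base before the annotated start, and those of Nr4a3, Srf and Nab1 are 30 bases around matches. The regions are chr10:67537430-67537565 (+) and chr10:67537753-67537868 (+) for 2 starts of Egr2, chr15:101266608-101266845 (+) for Nr4a1 and chr2:57124004-57124208 (−) for Nr4a2. The short ones are chr4:48045079-48045108 (+) for Nr4a3, chr17:46556215-46556244 (−) for Srf and chr1:52500567-52500596 (−) for Nab1.
Egr2, the start at 67537566: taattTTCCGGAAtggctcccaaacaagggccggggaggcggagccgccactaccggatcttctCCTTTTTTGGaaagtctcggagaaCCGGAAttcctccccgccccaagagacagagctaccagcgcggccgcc
Egr2, the start at 67537869: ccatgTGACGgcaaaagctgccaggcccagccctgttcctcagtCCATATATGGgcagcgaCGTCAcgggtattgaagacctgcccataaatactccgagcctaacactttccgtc
Nr4a1: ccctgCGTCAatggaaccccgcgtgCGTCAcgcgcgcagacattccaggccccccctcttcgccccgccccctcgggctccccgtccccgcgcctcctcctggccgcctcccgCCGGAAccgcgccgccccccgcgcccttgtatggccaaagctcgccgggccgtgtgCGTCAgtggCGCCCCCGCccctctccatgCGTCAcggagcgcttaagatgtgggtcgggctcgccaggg
Nr4a2: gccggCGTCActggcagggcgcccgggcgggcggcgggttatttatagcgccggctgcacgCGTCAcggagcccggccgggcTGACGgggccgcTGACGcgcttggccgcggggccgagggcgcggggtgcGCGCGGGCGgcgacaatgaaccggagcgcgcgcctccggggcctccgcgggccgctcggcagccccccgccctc
Nr4a3: tagcgtcccatgtCGTCAcatTGACGtctc
Srf: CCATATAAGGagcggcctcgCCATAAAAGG
Nab1: ccgcggcCGCCCACGCcgggatctgCGTCA

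Srf held 2 CArG boxes, and Egr2 held 1 in 4 of its 5 windows, 3 of which overlap and share the same box. The windows of the NR4A genes, Nab1, Nab2 and Egr4 held none. A CArG box was present in 1.63% of all 32851 RefSeq windows, and 2 or more in 0.0183%. The NR4A windows each held 4 CRE cores, a count reached by 0.231% of windows. At least 1 core was present in 20.8%. The full CRE, TGACGTCA, and the NR4A monomer site AAAGGTCA were in none of the 12 windows of these genes, and in 1.79% and 1.51% of all windows. Nab1 held 3 EGR sites, a count or more reached by 0.195% of windows, and Nr4a1, Nr4a2 and Srf held 1 each, against 5.55% of all windows with at least 1. The ETS site, in 14.9% of windows, was found in Nr4a1, Srf and the Egr2 window at 67537566, where 2 of its 3 matches overlap on opposite strands. Both strands were searched for every motif, and a full CRE also holds the core. A match describes the letters only. Nr4a1 and Nr4a2 had the same number of CRE cores, and the first was 7.13-fold and the second 1.72-fold lower in 2KR cells. The part of any of these sites in the ratios was not tested.

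**Figure D1:**
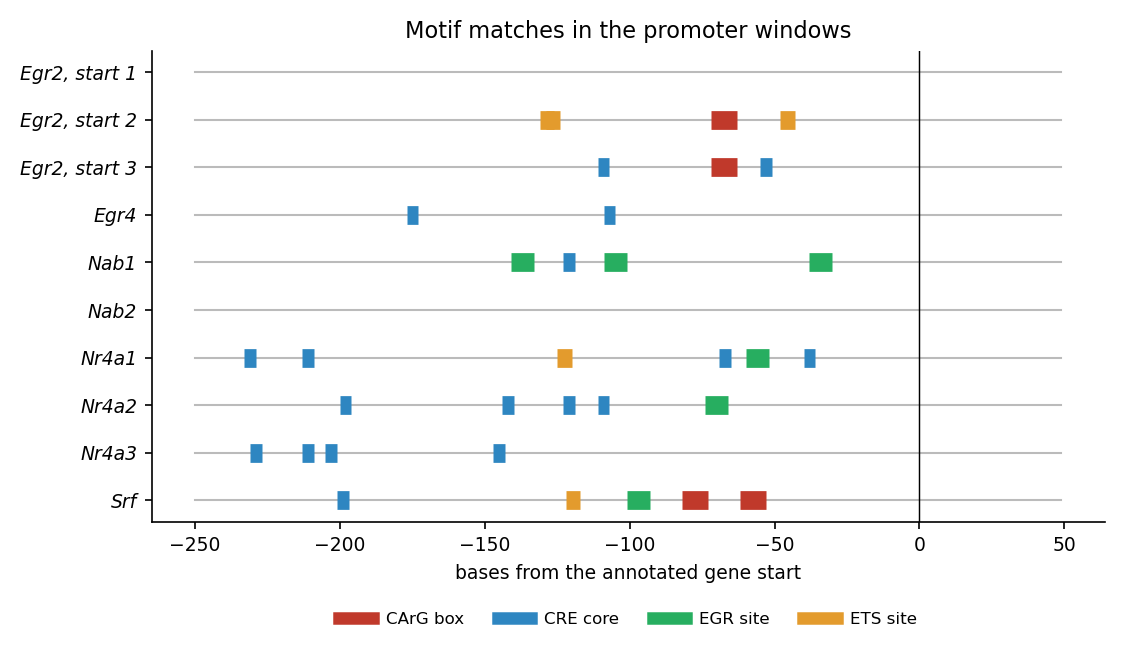
Motif matches in RefSeq promoter windows of 8 genes, as distance in bases from the annotated start (vertical line); each grey line is 1 window and each block 1 match on either strand. The 3 NR4A windows hold 4 CRE cores each, Srf holds 2 CArG boxes, and Nab1 holds 3 EGR sites; 2 further Egr2 starts close to the third are not drawn.

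The 2KR library held 20462011 counts and the WT library 17606168, with mitochondrial models at 6.22% of counts in 2KR and 7.45% in WT. Levels are given as CPM, the counts scaled by library size after TMM adjustment. With a single library of each form nothing could be tested across replicates, and intervals in parentheses are 95% intervals of counting error only. A mean of 1 CPM or more over both libraries was reached by 12466 models, of which 7.22% differed at least 2-fold on the log2(CPM + 1) scale, 4.56% being lower in 2KR and 2.66% higher. The median log2 ratio over these models was 0.02. Of the 10 genes, 8 passed this filter, 3 were called lower and 0 higher, and their median log2 ratio was -0.69. Counting intervals lay entirely below a ratio of 1 for 8 of 8, against 28.5% of the models compared, and entirely above it for 0 of 8, against 31.6%. Counting intervals thus set many models apart, and they hold no replicate error. In such bulk RNA, fewer cells that express a gene and less RNA per cell cannot be told apart.

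**Figure D2:**
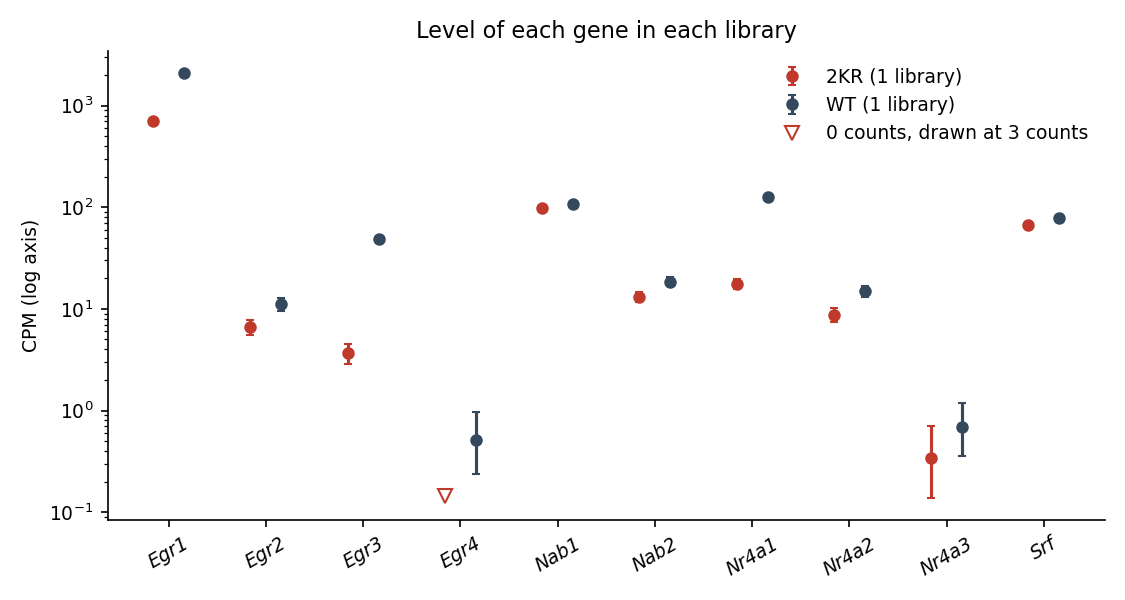
Level of each gene in CPM on a log axis, 2KR (red, left of each pair) and WT (dark, right), 1 library each; bars are 95% Poisson intervals and the open triangle marks a gene with 0 counts, drawn at 3 counts. Egr1, Egr3 and Nr4a1 show the widest gaps among the 8 genes above 1 CPM, while Nab1 and Srf nearly coincide.

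Egr1 (ENSMUSG00000038418, chromosome 18, 34859823 to 34864984, plus strand), the founding EGR factor, dominated its family in both libraries. It had 14411 counts in 2KR cells, or 699 CPM (688 to 711), against 37060 counts in WT cells, or 2120 CPM (2098 to 2141). The ratio was 3.03-fold lower in 2KR (2.97 to 3.09), with a log2 ratio of -1.60. By CPM, Egr1 ranked 110 among all models in 2KR cells and 18 in WT cells. Its difference of -1420 CPM, 2KR minus WT, was the 4th most negative of any model. Among 2600 models averaging 100 CPM or more, 17 had a log2 ratio at or below that of Egr1, itself included, and 52 were at least 2-fold lower.

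Egr3 (ENSMUSG00000033730, chromosome 14, 70077445 to 70080157, plus strand), a paralogue known from muscle spindle and lymphocyte development in mice, had the most negative log2 ratio of the 10, -3.43. It had 75 counts in 2KR cells, or 3.64 CPM (2.86 to 4.56), against 856 counts in WT cells, or 48.96 CPM (45.7 to 52.4). The ratio was 13.5-fold lower in 2KR (10.6 to 17.3), and 19 of the 12466 models tested had a more negative log2 ratio. The counting intervals of the Egr3 and Egr1 ratios do not overlap. For each Egr3 count there were 192 Egr1 counts in 2KR cells (153 to 244) and 43.3 in WT cells (40.5 to 46.4), so the EGR pool held a smaller share of Egr3 in the 2KR library.

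Egr2 (ENSMUSG00000037868, chromosome 10, 67535475 to 67542188, plus strand), a factor of hindbrain and Schwann cells that is also induced in lymphocytes and macrophages, was low in both. It had 136 counts in 2KR cells, or 6.60 CPM (5.54 to 7.81), against 194 in WT cells, or 11.1 CPM (9.59 to 12.8). The ratio was 1.68-fold lower in 2KR (1.34 to 2.11), under the 2-fold rule. Egr4 (ENSMUSG00000071341, chromosome 6, 85511121 to 85513589, minus strand), a paralogue best known from neurons and germ cells, had 0 counts in 2KR cells and 9 in WT cells. Set against a floor of 3 counts in the 2KR library, 0.146 CPM, the WT level as measured is 3.54-fold higher. With the counting error of the 9 WT counts included, the interval allows a ratio as small as 2.33-fold lower in 2KR. Egr4 lay under the expression filter. Over the family as a whole, EGR transcripts summed to 710 CPM in 2KR cells and 2180 CPM in WT cells, 3.07-fold lower (3.01 to 3.13). Egr1 made up 98.6% of EGR counts in 2KR cells (Clopper-Pearson 98.4 to 98.7) and 97.2% in WT cells (97.1 to 97.4).

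Both NAB corepressors differed less than 2-fold, Nab1 less so than Nab2. Nab1 (ENSMUSG00000002881, chromosome 1, 52457294 to 52500679, minus strand), which is made in most cells without induction, had 2040 counts in 2KR cells and 1890 in WT cells. These are 99.0 CPM in 2KR (94.8 to 103) and 108 CPM in WT (103 to 113), 1.09-fold lower in 2KR (1.03 to 1.16). Nab2 (ENSMUSG00000025402, chromosome 10, 127660918 to 127668568, minus strand), which EGR1 itself induces in a feedback loop, had 270 counts in 2KR cells and 325 in WT cells. These are 13.1 CPM in 2KR (11.6 to 14.8) and 18.6 CPM in WT (16.6 to 20.7), 1.42-fold lower in 2KR (1.20 to 1.67). The Nab2 model overlaps Tmem194 by 1668 bases, Gm16229 by 1646 bases and Stat6 by 40 bases, all on the other strand. Since it is not stated whether counting used strand, reads of these genes cannot be told apart in the overlaps. Tmem194 had 56.2 CPM in 2KR cells and 46.4 CPM in WT cells, and Stat6 had 118 CPM in 2KR and 138 CPM in WT. Gm16229 had 0 counts in both libraries.

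The balance of factor to corepressor mRNA differed between the libraries. There were 6.33 EGR counts for each NAB count in 2KR cells (6.06 to 6.62) and 17.2 in WT cells (16.5 to 17.97). This ratio is of raw counts and not of molecules, since the models differ in length, and neither protein was measured.

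Among the NR4A receptors, Nr4a1 (ENSMUSG00000023034, chromosome 15, 101266846 to 101274792, plus strand), also called Nur77, was the most abundant by count in both libraries. It had 363 counts in 2KR cells, or 17.6 CPM (15.9 to 19.5), against 2195 in WT cells, or 126 CPM (120 to 131). It was 7.13-fold lower in 2KR (6.37 to 7.99), with a log2 ratio of -2.76 that was rank 44 from the lowest among the models tested. Its counting interval lies between those of Egr3 and Egr1 and overlaps neither.

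Nr4a2 (ENSMUSG00000026826, chromosome 2, 57106830 to 57124003, minus strand), or Nurr1, a factor required for midbrain dopamine neurons in mice, had a ratio whose counting interval lies apart from that of Nr4a1. It had 180 counts in 2KR cells, or 8.74 CPM (7.51 to 10.1), against 262 in WT cells, or 14.99 CPM (13.2 to 16.9), 1.72-fold lower (1.41 to 2.09). Nr4a3 (ENSMUSG00000028341, chromosome 4, 48045153 to 48086447, plus strand), or NOR1, had 7 counts in 2KR cells and 12 in WT cells. Its ratio, 2.02-fold lower, has an interval of the 2KR over WT ratio from 0.165 to 1.36 that spans 1, so no difference in Nr4a3 was detectable at this depth. The 3 receptors summed to 26.7 CPM in 2KR cells and 141 CPM in WT cells, 5.29-fold lower (4.82 to 5.81). The make-up of the family differed as well. Nr4a1 was 66% of NR4A counts in 2KR cells (Clopper-Pearson 61.9 to 70.0) and 88.9% in WT cells (87.6 to 90.1). For each Nr4a2 count there were 2.02 Nr4a1 counts in 2KR cells (1.68 to 2.42) and 8.38 in WT cells (7.37 to 9.56).

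Srf (ENSMUSG00000015605, chromosome 17, 46546839 to 46556162, minus strand), the factor upstream of the EGR genes, had nearly the same counts in both libraries, 1384 in 2KR cells and 1370 in WT cells. Scaled, these are 67.2 CPM in 2KR (63.7 to 70.8) and 78.4 CPM in WT (74.3 to 82.6), 1.17-fold lower in 2KR (1.08 to 1.26). For each Srf count there were 10.4 Egr1 counts in 2KR cells (9.85 to 11.0) and 27.1 in WT cells (25.6 to 28.6). The model Gm26904, on the other strand, overlaps all 9324 bases of the Srf locus and had 0 counts in both libraries. How reads in that overlap were assigned is not stated either. The counts of Srf mRNA say nothing of the activity of its protein, which is regulated by cofactors and phosphorylation.

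Levels between the genes can be compared only per length, and the length behind the deposited FPKM is not stated. For Egr1 the FPKM implies a length of 7520 bases, more than the 5162 bases of its locus, while for Egr3 it implies 1416. Levels were therefore also computed as CPM per kilobase of annotated exon, with the GENCODE M21 exons for the 7 genes whose locus is identical there and the implied length for Egr3, Nr4a1 and Srf. On this scale Egr1 was at 156 in 2KR cells and 473 in WT cells, against 93.7 FPKM in 2KR and 280 FPKM in WT. The order in 2KR cells was Egr1, Nab1, Srf (16.4), Nr4a1 (7.12), Nab2 (4.46), Egr3 (2.57), Nr4a2 (2.15) and Egr2 (1.94). The order in WT cells was Egr1, Nr4a1 (50.7), Egr3 (34.6), Nab1 (26.4), Srf (19.1), Nab2 (6.32), Nr4a2 (3.69) and Egr2 (3.27). Egr4 and Nr4a3 were lowest on this scale in both libraries. Counting intervals of the neighbours Egr3, Nr4a2 and Egr2 overlap in 2KR cells, as do those of Nr4a2 and Egr2 in WT cells. The places of Egr3, Nr4a1 and Srf rest on implied lengths of 1416, 2474 and 4093 bases. Their GENCODE M21 exons add up to 4406, 3509 and 2893 bases. With those lengths Egr3 and Nr4a1 would be lower and Srf higher in both libraries. Egr3 would then fall below Nab1 and Srf in WT cells and below Egr2 in 2KR cells, and Srf would pass Nab1 in WT cells.

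**Figure D3:**
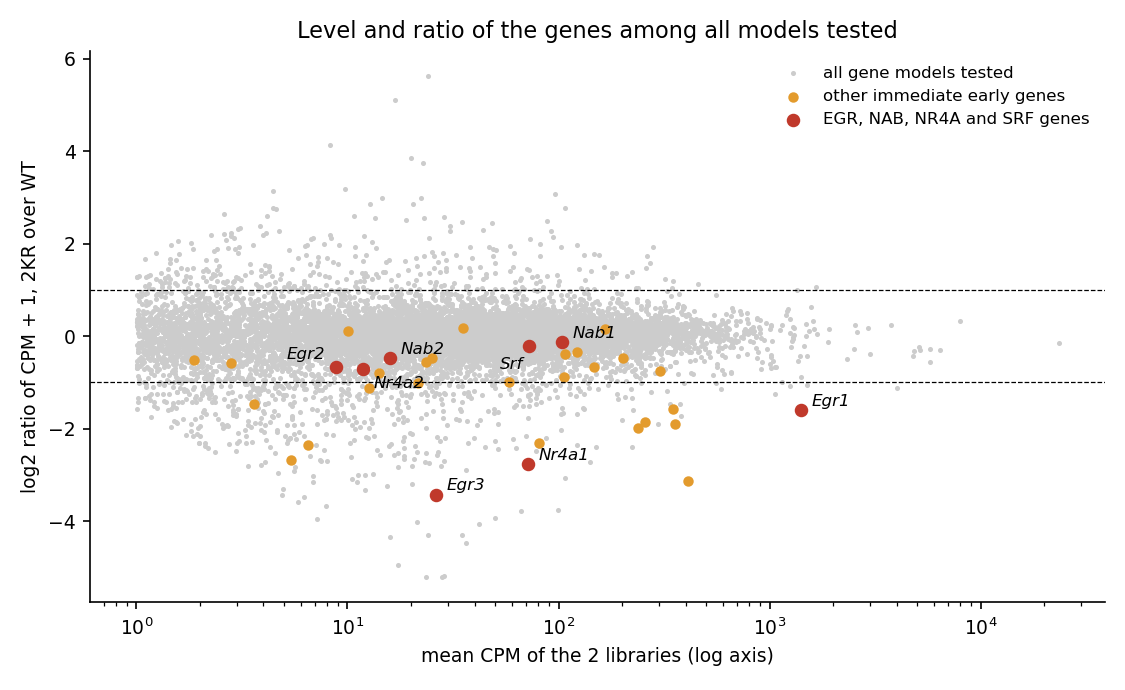
Log2 ratio of CPM + 1 (2KR over WT) against the mean CPM on a log axis for all 12466 models tested (grey), other immediate early genes (orange) and the 8 tested EGR, NAB, NR4A and SRF genes (red, named); dashed lines mark 2-fold. Egr1 at -1.60 lies far to the right, among the most abundant models, and Egr3 and Nr4a1 lie near the lower edge.

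Of 28 other immediate early genes listed, 26 passed the filter. In 2KR 11 of these were called at least 2-fold lower on the log2(CPM + 1) scale, 0 higher and 15 neither. The number called lower ran from 8 with a pseudocount of 5 CPM to 16 at 1.5-fold. Among the 15, Nfkbiz was 2.02-fold lower by CPM (1.84 to 2.20), with a log2 ratio of -0.99, and is named after its values were seen. For the 26 the median log2 ratio was -0.83, beside 0.02 over all models. At the 2-fold rule 4.56% of all models tested were lower and 2.66% higher. Ptgs2, the inducible cyclooxygenase, was the most abundant of the list by the mean of both libraries and had its most negative log2 ratio, with 83.3 CPM in 2KR cells and 738 CPM in WT cells, a log2 ratio of -3.13. Fosb, an AP-1 subunit, had 0.728 CPM in 2KR and 10.1 CPM in WT, the zinc finger gene Klf4 had 1.46 CPM in 2KR and 11.5 CPM in WT, and Fos, the partner of JUN, had 26.4 CPM in 2KR and 136 CPM in WT. The other 7 called lower were Fosl2, Junb, Ier2, Zfp36, Maff, Csrnp1 and Arc, named here after their values were seen. Not every gene of the list was lower. Myc had 174 CPM in 2KR cells and 157 CPM in WT cells, Ier5 had 37.3 CPM in 2KR and 33.1 CPM in WT, and Gadd45b had 10.4 CPM in 2KR and 9.61 CPM in WT, the 3 with ratios above 1 among the 26 above the filter, also named after their values were seen. This list holds genes already known to be lower in these libraries, so its count is a description and not independent of earlier results.

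The upstream kinases and factors were mostly within 2-fold at the RNA. Of the 15 listed genes from RAS to ERK and its kinases RSK and MSK, 0 were called lower and 2 higher, with a median log2 ratio of -0.06. Over all models tested, 4.56% were called lower and 2.66% higher. The genes called higher were the RSK genes Rps6ka2, 3.35-fold (2.96 to 3.81), and Rps6ka3, 2.43-fold (2.30 to 2.56). Rps6ka2 had 59.98 CPM in 2KR cells and 17.9 CPM in WT cells, and Rps6ka3 had 254 CPM in 2KR and 105 CPM in WT. Rps6ka1, the third RSK gene of the list, had 52.8 CPM in 2KR cells and 72.7 CPM in WT cells, and the MSK gene Rps6ka5 had 54.8 CPM in 2KR and 64.5 CPM in WT. The RSK genes thus differed in opposite directions, with Rps6ka1 under the 2-fold rule.

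Of 6 SRF cofactors 5 passed the filter and none was called, with a median of -0.15. Elk3, an ETS partner of SRF and the most abundant of the list, had 122 CPM in 2KR cells and 136 CPM in WT cells. The cofactor of actin signalling Mkl1 had 90.4 CPM in 2KR cells and 124 CPM in WT cells, and its relative Mkl2 had 41.5 CPM in 2KR and 52.8 CPM in WT. Elk4, another ETS partner, had 89.9 CPM in 2KR cells and 81.3 CPM in WT cells. Of 16 CREB and MEF2 regulators 14 passed and none was called, with a median of -0.02. Crebbp, the coactivator of CREB, had the largest ratio in size, with 73.5 CPM in 2KR cells and 123 CPM in WT cells, and its paralogue Ep300 had 190 CPM in 2KR and 221 CPM in WT. Crem, a CREB relative, had 34.7 CPM in 2KR and 46.0 CPM in WT, the deacetylase gene Hdac4 had 28.2 CPM in 2KR and 36.7 CPM in WT, and Hdac7 had 86.9 CPM in 2KR and 65.7 CPM in WT. The NR4A partners and corepressors, 7 of 8 tested, had 0 calls and a median of 0.02. Rxra, a receptor that pairs with NR4A1, had 182 CPM in 2KR cells and 197 CPM in WT cells. Ncor1, the nuclear receptor corepressor and the most abundant of this list, had 373 CPM in 2KR cells and 350 CPM in WT cells. The demethylase gene Kdm1a had 94.98 CPM in 2KR and 91.4 CPM in WT. Calls in either direction made up 7.22% of all models tested.

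Genes listed as downstream differed in both directions. Of 19 genes reported as EGR1 targets, Nab2 among them, 17 passed the filter, 2 were called lower and 1 higher, and the median log2 ratio was -0.21. The count called lower was 1 with a pseudocount of 5 CPM, a mean of at least 5 CPM or the deposited FPKM + 1, and at 1.5-fold 4 were lower and 2 higher. Among all models tested, the shares called at 2-fold were 4.56% lower and 2.66% higher. Cd44, the hyaluronan receptor, had 14.2 CPM in 2KR cells and 51.3 CPM in WT cells, 3.62-fold lower (3.17 to 4.15). Sphk1, a sphingosine kinase, had 10 counts in 2KR and 66 counts in WT, 7.78-fold lower (3.97 to 16.97). On the other side Icam1, an adhesion molecule, had 22.1 CPM in 2KR cells and 5.15 CPM in WT cells, 4.30-fold higher (3.42 to 5.45). Vegfa had 33.5 CPM in 2KR cells and 61.1 CPM in WT cells, and Mmp14, a membrane protease and the most abundant of the list by the mean of both libraries, had 506 CPM in 2KR and 632 CPM in WT. Each of these genes has other known inducers, and none was tested here for EGR1 binding.

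Of 20 actin and contractile targets of SRF 15 passed, 1 was called lower and 0 higher, and the median was -0.10. The gene called was Myl9, a myosin light chain, with 54 counts in 2KR cells and 117 in WT cells. The count called lower was 0 with a pseudocount of 5 CPM, a mean of at least 5 CPM or the deposited FPKM + 1, and 2 at 1.5-fold. Vcl, encoding vinculin, had 117 CPM in 2KR cells and 219 CPM in WT cells, just under the rule, while Flna, encoding filamin A and the most abundant, had 2016 CPM in 2KR and 1818 CPM in WT. Fhl2, a LIM protein, had 46 counts in 2KR and 25 counts in WT, and Pdlim7 had 372 counts in 2KR and 395 counts in WT. The share of this list called lower, 1 of 15, stands beside 4.56% of all models. Other factors of GC-rich sites had 0 calls among 6 tested, with a median of -0.20. Klf13, the most abundant, had 197 CPM in 2KR cells and 279 CPM in WT cells, Sp4 had 29.5 CPM in 2KR and 39.9 CPM in WT, Zbtb7a had 115 CPM in 2KR and 140 CPM in WT, and Sp2 had 40.9 CPM in 2KR and 44.3 CPM in WT. Wt1, which binds a site much like that of EGR1, had 0 counts in both libraries and is named after its values were seen.

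**Figure D4:**
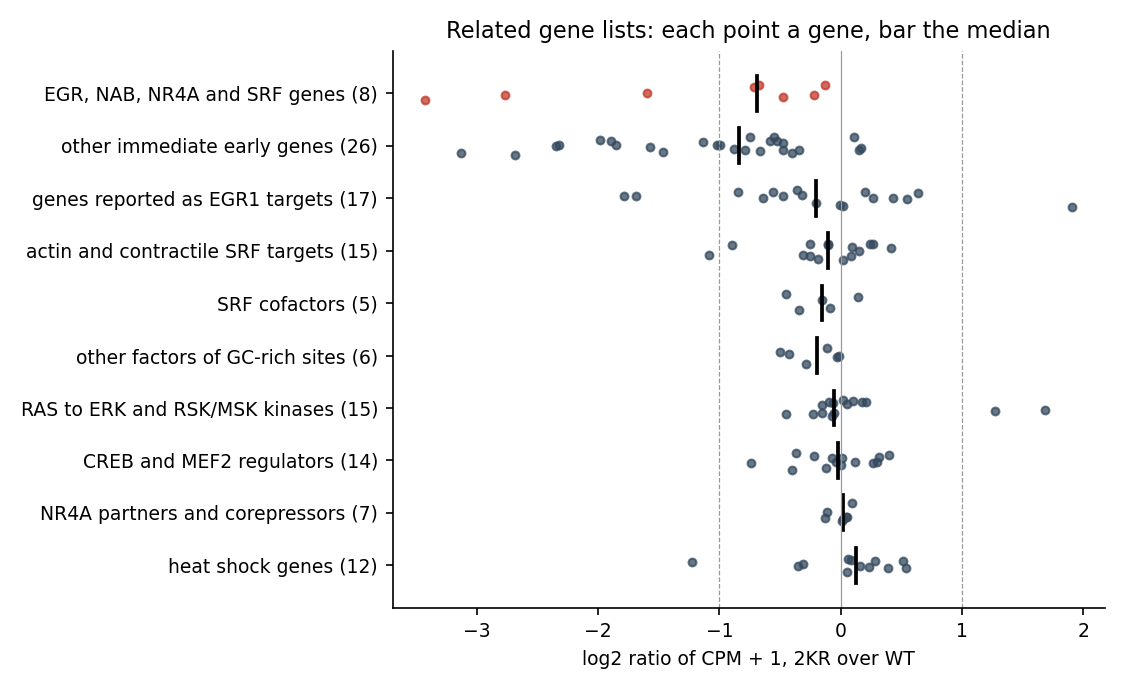
Log2 ratio of CPM + 1 (2KR over WT) of each tested gene in 10 lists, with the number tested in parentheses; the black bar is the median, the solid line 0 and the dashed lines 2-fold. The EGR, NAB, NR4A and SRF genes (red) and the other immediate early genes reach below -3, while the medians of the kinases, cofactors and partners lie between -0.15 and 0.02.

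Heat shock genes, which also answer to handling, were read beside them. Of 12, 1 was called lower and 0 higher, beside 4.56% lower and 2.66% higher over all models tested. The median log2 ratio of the 12 was 0.12. Hsp90ab1, the most abundant, had 2746 CPM in 2KR cells and 2337 CPM in WT cells, and Hsp90aa1 had 792 CPM in 2KR and 546 CPM in WT. Hspa1b, a strongly inducible member, had 21.8 CPM in 2KR cells and 14.99 CPM in WT cells, and Hspd1 had 325 CPM in 2KR and 248 CPM in WT. Hspb1, the 1 gene called, had 17 counts in 2KR and 57 counts in WT, and the count called was 0 with a pseudocount of 5 CPM, a mean of at least 5 CPM or the deposited FPKM + 1. Ratios were below 1 for 3 of the 12 and above 1 for 9, and the part of handling in the result was not tested.

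The labelled cell type was checked against markers. Stem and progenitor markers summed to 5057 CPM in 2KR cells and 5007 CPM in WT cells, with 0 of 11 tested called. Kit, the receptor for SCF, had 1158 CPM in 2KR cells and 1359 CPM in WT cells, and Cd34 had 723 CPM in 2KR and 388 CPM in WT. Flt3 had 32.6 CPM in 2KR cells and 18.02 CPM in WT cells, Ly6a had 89.2 CPM in 2KR and 135 CPM in WT, and Gata2 had 447 CPM in 2KR and 683 CPM in WT. Most mast cell and basophil markers, of which Gata2 is also 1, were lower alongside the early response genes. The list summed to 4279 CPM in 2KR cells and 8024 CPM in WT cells, and of 10 tested 7 were called lower and 1, Mcpt8, higher. Mcpt8 had 450 CPM in 2KR cells and 190 CPM in WT cells, 2.37-fold higher (2.27 to 2.46). The shares called over all models tested were 4.56% lower and 2.66% higher. Cpa3 made up most of both sums, with 2525 CPM in 2KR cells and 5468 CPM in WT cells. Of the defining markers, Fcer1a had 0 counts in both libraries. Tpsb2 had 0 counts in 2KR and 5 in WT, and Prss34 had 0 in 2KR and 82 in WT. Cma1 had 2 counts in 2KR and 62 in WT, Mitf had 52 in 2KR and 255 in WT, and Ms4a2 had 18 in 2KR and 66 in WT. Monocyte and macrophage markers summed to 125 CPM in 2KR cells and 262 CPM in WT cells, with 2 of 7 tested lower and 1 higher. Cx3cr1 had 20.7 CPM in 2KR and 101 CPM in WT, and Ccr2 had 56.2 CPM in 2KR and 118 CPM in WT. Together Cx3cr1 and Ccr2 made up most of both sums. Csf1r, Fcgr1, Cd14, Mrc1 and Itgam lay under the filter, with at most 19 counts in either library. Ly6c2 had 6.31 CPM in 2KR and 0.858 CPM in WT, and Adgre1 had 13.3 CPM in 2KR and 6.92 CPM in WT. The part of these cell types in the EGR and NR4A result was not tested.

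Markers of the other lineages that such a culture could hold differed in both directions. Beside them stand 4.56% of all models tested called lower and 2.66% called higher. Neutrophil markers summed to 538 CPM in 2KR cells and 246 CPM in WT cells, with 2 of 4 tested called higher, Ctsg and Mpo, and Camp and Ly6g at 0 in both. Ctsg made up most of both sums, with 487 CPM in 2KR and 212 CPM in WT. Elane, Prtn3, Ltf, S100a8 and S100a9 lay under the filter, with at most 14 counts in either library. Erythroid and megakaryocyte markers summed to 1322 CPM in 2KR cells and 1020 CPM in WT cells, with 2 of 8 called higher, Pf4 and Ppbp. Lymphoid markers summed to 3.45 CPM in 2KR cells and 34.2 CPM in WT cells. Il7r, with 12 counts in 2KR and 548 in WT, was 1 of 2 tested and the 1 called lower, and Cd3e, Ebf1, Rag1 and Ncr1 were at 0 in both. Stromal and endothelial markers summed to 1132 CPM in 2KR cells and 1102 CPM in WT cells, with 0 of 5 called. The sums of this last list come mostly from Pecam1, with 669 CPM in 2KR and 550 CPM in WT, and Pdgfrb, with 451 CPM in 2KR and 543 CPM in WT.

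None of the neighbouring genes was called, while 7.22% of all models tested were, a share that would give few calls among 30. Within 100 kb of the 10 genes, 30 other models passed the filter and 0 were called in either direction, with log2 ratios from -0.56 to 0.95. The highest was Smyd5 near Egr4, named after its values were seen. By CPM it was 2.01-fold higher in 2KR (1.70 to 2.38), and on the log2(CPM + 1) scale it lay under the rule. Nab1 and Nr4a2 had no neighbouring model above the filter. Near Egr1 there were 5 models above the filter, from -0.56 to 0.33, near Egr3 3, from -0.18 to 0.16, and near Nr4a1 5, from -0.30 to 0.16.

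With 2 libraries, likeness to Egr1 comes down to 1 number, the log2 ratio. Among these abundant models, averaging 100 CPM or more, those nearest to Egr1 at -1.60 were Dtx4 at -1.58, Ier2 at -1.57, Cish at -1.57, Ankrd44 at -1.56 and P4ha2 at -1.67. Ier2 is an immediate early gene and Cish is a STAT5-induced inhibitor of cytokine signalling. Dtx4, a ubiquitin ligase of the Notch pathway, had 65.6 CPM in 2KR cells and 198 CPM in WT cells, and P4ha2, a collagen prolyl hydroxylase, had 49.8 CPM in 2KR and 161 CPM in WT.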

How the data were processed

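For each of 34745 gene models the authors deposited, per the file headers, a raw count of reads and an FPKM value, which is scaled by gene length and depth, in 2 libraries. The submitters' processing notes name HISAT2 2.0.4 and GRCm38. Not given in the sources used here: how reads were counted, with which annotation release and strand setting, and whether duplicates were removed. No column of another sample was present.

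Deposited counts (20462011 in 2KR, 17606168 in WT) were scaled to CPM by TMM in edgeR 4.0.16 (R 4.3.3), which served for scaling only. Later steps ran in Python 3.11.15 with numpy 2.4.6, pandas 2.3.3, matplotlib 3.10.9 and scipy 1.17.1. Differences are log2 ratios, 2KR over WT, after adding a pseudocount of 1 CPM, which understates those of low genes. Models were compared where the mean reached 1 CPM and called at 2-fold. Having 1 library per form, the design allowed no test. Intervals at the 95% level (Poisson for a level, Clopper-Pearson for a ratio or share) cover counting error only, and a count of 0 was given a floor of 3 counts in its library.

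The genes and lists were chosen with earlier results of these data known. All 10 genes were named, and from each related list the 4 largest log2 ratios in size and the 1 most abundant gene by mean CPM, with the 5 abundant models nearest to Egr1. A few genes that this rule names are not reported here. Other genes are said to be chosen after their values were seen, apart from marker genes, given for the check of cell type. Symbols held by more than 1 model were taken at the identifier carrying them in the gene name table. GENCODE M21 on GRCm38 held 34267 of the model identifiers. Promoter windows came from RefSeq on GRCm38.p6. Alternatives were other scalings, centring, pseudocounts, filters, folds and the deposited FPKM.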

Additional observations from a re-analysis of the deposited data

How the results depend on the processing

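All 70 log2 ratios of the 10 genes recomputed under another scaling, centring, pseudocount or the deposited FPKM stayed below 0, and none reversed. They ran from -1.62 to -1.57 for Egr1, from -3.71 to -2.64 for Egr3 and from -2.83 to -2.53 for Nr4a1. The count of 3 genes called lower was the same under every alternative except a rule of 1.5-fold, which called 5. Over all models, the 569 called lower and 331 called higher became 1205 and 863 at 1.5-fold, 297 and 147 with a pseudocount of 5 CPM, 377 and 207 with a mean of at least 5 CPM, and 282 and 166 on the deposited FPKM + 1. The rule was looser in the first, the larger pseudocount shrinks the ratios of low genes in the second, and fewer models were tested in the third. In the last, the pseudocount of 1 was added to FPKM values, which were smaller than CPM for genes such as Nab1. Nab1 had 17.1 FPKM and 99.0 CPM in 2KR cells. A pseudocount of 1 shrinks the ratios of smaller values more. How much of the lower counts on the deposited FPKM + 1 came from this was not tested. The median of the reported EGR1 targets was 0.01 with a mean of at least 5 CPM, against -0.21, since low genes left the list. For Egr4 and Nr4a3 depth is the limit, with at most 12 counts. No paired analysis was possible because each form had 1 library.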
